A study of Mus musculus with 24 samples.

Results

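NIH-3T3 mouse fibroblasts were treated with IFN-alpha at 100 U/ml or with medium alone (mock) for 3 h, and the transcripts of the treated cells were compared with those of the mock cells on 3 arrays per group. These 6 arrays belong to a set of 24 arrays in 7 groups, and the comparison was chosen by time and treatment alone, across all probe sets (the sets of short oligonucleotides that each report on 1 transcript) above log2 4 on at least 3 of the 24 arrays. NIH-3T3 is an established, immortal line of embryonic fibroblasts. Both groups received fresh medium at the start and 4-thiouridine (4sU), a nucleoside built into newly made RNA, at 500 µM in the last 30 min (150 to 180 min), but the RNA measured was total cellular RNA. The 3 arrays of cells given IFN-gamma (100 U/ml, 3 h, with the same 4sU) shared the fit. The 4 IFN-alpha and 4 mock arrays of 1 h (200 µM 4sU for 60 min) were used to compare the response between the times. The other 1 h arrays were 4 of cells given IFN-gamma (100 U/ml, with 200 µM 4sU) and 3 of mock cells without 4sU. They entered the fits of all 24 arrays, the background filter and the choice of a gene's brightest probe set. The labels do not say whether replicates were separate cultures, so the p-values measure the spread between arrays, which may be technical.

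Type I interferons such as IFN-alpha bind a receptor made of IFNAR1 and IFNAR2, whose kinases JAK1 and TYK2 phosphorylate STAT factors, STAT2 among them. STAT2 and IRF9 are subunits of ISGF3, a transcription factor that binds the interferon-stimulated response element (ISRE) in the promoters of antiviral genes. IFN-gamma uses another receptor and acts mainly through the gamma-activated site (GAS).

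Values are GCRMA signals on the log2 scale, where a difference of 1 is a doubling, and log2 4 was taken as background. Of 9421 genes with a measured probe set, 304 (3.23%) were higher with IFN-alpha and 50 (0.531%) were lower, at an adjusted p under 0.05 in limma. In probe sets these were 525 of 19305 (2.72%) higher and 84 (0.435%) lower. The rises were large and the falls small. Among the 304 genes the median rise was 1.10 on the log2 scale and the highest 8.71, 161 rose by more than 1 and 59 by more than 3, while the 50 falls lay between -0.31 and -0.90. For all 304 and all 50 the 3 IFN-alpha arrays and the 3 mock arrays did not overlap. These genes were picked by their call, and the share over all genes was not counted, so this is no separate support. The same holds wherever called genes are described below as standing apart or not overlapping between the groups. When all 24 arrays shared the estimate of the spread, 295 probe sets were higher and 5 lower. The median SD of a probe set within a group was 0.118 to 0.127 at 3 h, against 0.35 to 0.403 for the 4 groups of 1 h. A fit with replicate number as the block gave 653 higher and 248 lower and kept 607 of the 609 calls. Over all probe sets the median difference was -0.065.

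**Figure D1:**
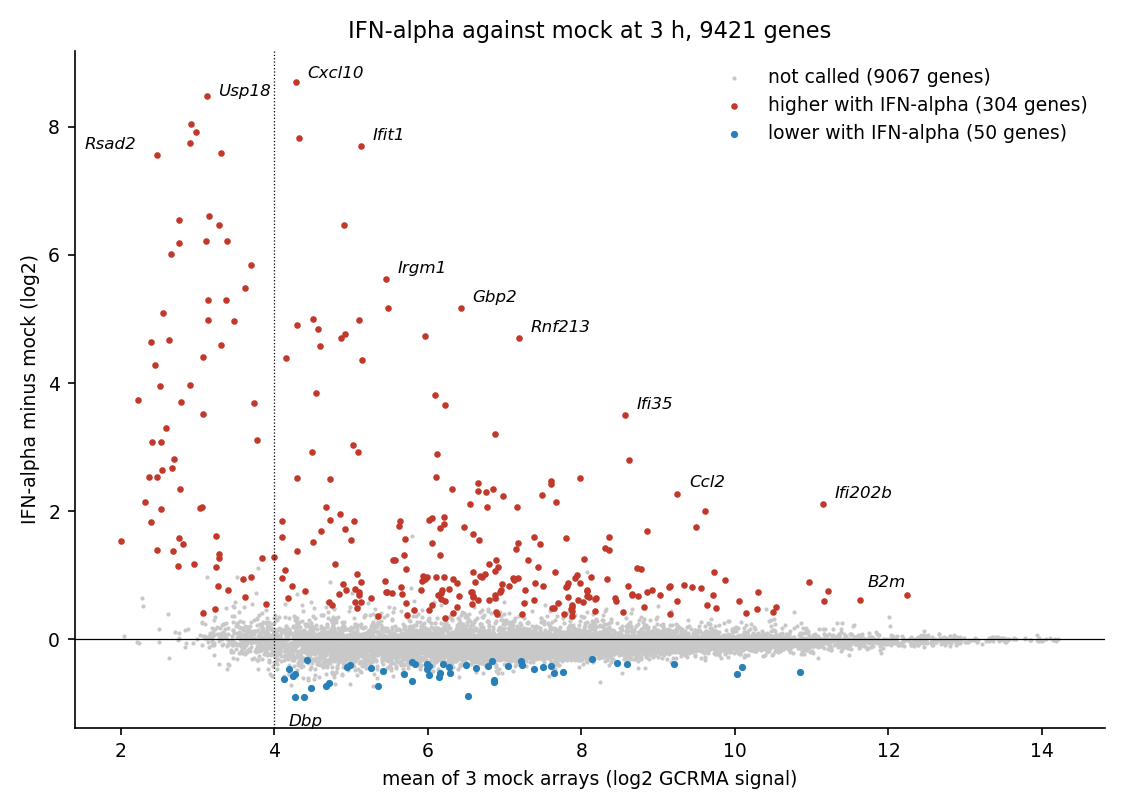
Each point is 1 of 9421 genes, with the mean signal of the 3 mock arrays (log2) on the horizontal axis and the difference between IFN-alpha and mock at 3 h (log2) on the vertical axis. Red points are the 304 genes called higher, blue points the 50 called lower and grey points the rest, and the dotted line marks the background level of log2 4, left of which 67 of the rising genes lie.

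The 6 arrays were alike in signal, with medians of 2.947 to 2.965 and 17345 to 17647 probe sets above log2 4. For beta-actin, the gap between the 3′ and the 5′ control probe sets was 0.796 to 0.965. The control probe sets for 18S ribosomal RNA averaged 10.28 on IFN-alpha replicate 3, against 5.594 and 4.544 on IFN-alpha replicates 1 and 2 and 4.275 to 5.708 on the mock arrays. Without that array 494 probe sets were higher and 66 lower. All 22 fibroblast markers measured lay above log2 4 on all 6 arrays, and 13 of 14 leukocyte markers and all 12 epithelial and endothelial markers with a probe set lay below it on all 6. The exception was Cd14, at 5.47, 5.39 and 5.41 with IFN-alpha and 5.71, 5.98 and 5.59 in mock cells.

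Among the 25 largest rises were antiviral effectors, GTPases, a chemokine and the main brake on type I signalling. Cxcl10, which encodes a chemokine that draws activated T cells, had signals of 12.98, 13.00 and 13.00 on the IFN-alpha arrays and of 4.13, 4.36 and 4.36 on the mock arrays. This was a 419-fold difference (8.71 ± 0.08 SE on the log2 scale, adjusted p = 2.25e-11 in limma), the largest measured difference, although the rises of genes below background in mock cells are bounds and cannot be ranked against it. Usp18, an enzyme that removes ISG15 from proteins and blocks the type I receptor, had 11.53, 11.63 and 11.63 with IFN-alpha and 2.87, 3.44 and 3.06 in mock cells. Its mock arrays all lay below background, so its fold is a lower bound, at least 194-fold (8.48 ± 0.13). Ifit1, whose product binds foreign RNA with an incomplete cap, stood at 12.86, 12.91 and 12.73 with IFN-alpha and at 4.99, 5.19 and 5.21 in mock cells, 208-fold higher (7.70 ± 0.09). Rsad2 (viperin), which makes a nucleotide that ends viral RNA chains, had 9.95, 10.11 and 10.05 with IFN-alpha and 2.55, 2.49 and 2.39 in mock cells, at least 65.6-fold higher (7.56 ± 0.07). In all 25 genes the lowest IFN-alpha array stood at least 4.87 log2 units above the highest mock array, and 18 of them had a mock mean below background. Their adjusted p-values in limma were at most 2.44e-07.

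**Figure D2:**
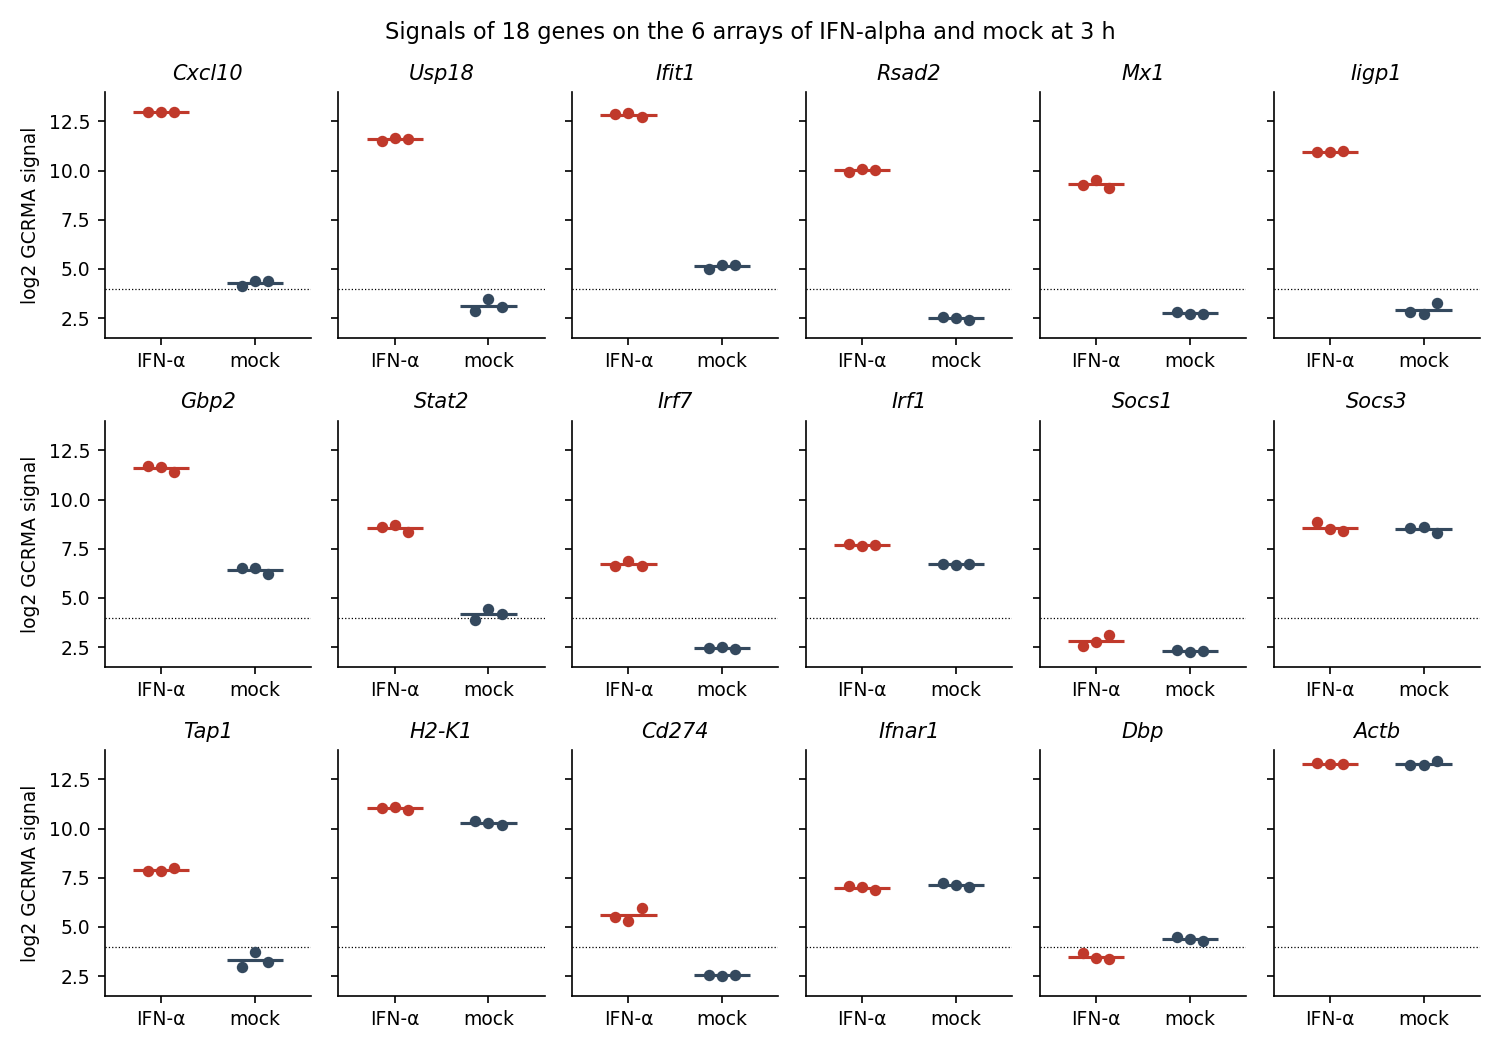
Each panel shows 1 gene, with the log2 GCRMA signals of the 3 IFN-alpha arrays (red, left) and the 3 mock arrays (dark, right) of 3 h as points, the group mean as a bar and the background level of log2 4 as a dotted line. Cxcl10, Usp18, Ifit1, Rsad2, Mx1, Iigp1 and Gbp2 are separated by more than 5 log2 units between the means, Irf1 and H2-K1 by less than 1, Socs1 lies below background on all 6 arrays, and Socs3, Ifnar1 and Actb overlap.

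The promoters of several of these genes are shown because they hold the letters of the ISRE. The sequences are RefSeq's, on build GRCm38.p6, from 250 bases before to 50 after the annotated start or a stretch of that window, read 5′ to 3′ on the gene's strand, and the capitals mark GAAA, any 2 bases and GAAA again, on either strand. Cxcl10 lies on the minus strand of chromosome 5, with a match that begins at position -213 from the start (chr5:92348840-92349139), and Ifit1 on the plus strand of chromosome 19, with matches at -104 and -85 (chr19:34640639-34640938).
Cxcl10: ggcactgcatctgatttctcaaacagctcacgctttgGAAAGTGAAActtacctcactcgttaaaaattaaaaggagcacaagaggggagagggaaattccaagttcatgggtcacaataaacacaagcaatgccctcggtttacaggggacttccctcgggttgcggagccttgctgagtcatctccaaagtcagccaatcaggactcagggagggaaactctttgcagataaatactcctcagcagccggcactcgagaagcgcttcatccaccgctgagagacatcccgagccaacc
Ifit1: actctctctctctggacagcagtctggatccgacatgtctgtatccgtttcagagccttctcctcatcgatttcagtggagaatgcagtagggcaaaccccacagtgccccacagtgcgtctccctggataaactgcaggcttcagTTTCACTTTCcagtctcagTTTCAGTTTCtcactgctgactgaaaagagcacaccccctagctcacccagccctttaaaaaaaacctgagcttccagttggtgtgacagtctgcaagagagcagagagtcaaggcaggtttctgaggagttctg

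Shorter stretches around the match are given for other genes of the 25, so that the letters and their distance from the start can be compared. They are Ifit3 (chr19:34583353-34583436, plus strand, first match at -156), Rsad2 (chr12:26456543-26456592, minus, match at -120), Igtp (chr11:58199502-58199551, plus, -34), Irgm2 (chr11:58214893-58214942, plus, -64), Irgm1 (chr11:48871415-48871470, minus, -30), Gbp2 (chr3:142620584-142620633, plus, -59), Gbp3 (chr3:142559979-142560034, plus, -45), Gbp7 (chr3:142530263-142530312, plus, -53) and Slfn8 (chr11:83020829-83020878, minus, -48).
Ifit3: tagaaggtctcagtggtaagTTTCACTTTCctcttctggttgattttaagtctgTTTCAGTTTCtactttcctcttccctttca
Rsad2: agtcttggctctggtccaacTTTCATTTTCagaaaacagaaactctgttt
Igtp: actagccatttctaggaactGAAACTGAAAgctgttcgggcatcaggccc
Irgm2: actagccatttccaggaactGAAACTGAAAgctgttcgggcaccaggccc
Irgm1: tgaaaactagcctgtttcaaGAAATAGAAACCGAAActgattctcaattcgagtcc
Gbp2: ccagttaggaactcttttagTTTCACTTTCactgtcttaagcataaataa
Gbp3: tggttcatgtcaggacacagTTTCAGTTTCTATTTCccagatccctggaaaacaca
Gbp7: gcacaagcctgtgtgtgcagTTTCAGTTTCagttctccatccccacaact
Slfn8: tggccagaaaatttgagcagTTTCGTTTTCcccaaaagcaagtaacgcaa

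Of the 25 largest rises, 18 had a promoter in the table and 12 of these held these ISRE-like letters. Over all rises of more than 3 on the log2 scale the letters were in 21 of 44 promoters (47.7%), over rises of 1 to 3 in 19 of 83 (22.9%), over rises of up to 1 in 10 of 114 (8.77%) and over the falls in 0 of 38. Among measured genes that were not called they were in 229 of 7438 (3.08%), and among all genes of the table in 1079 of 27025 (3.99%). For the GAS-like letters TTCNNNGAA, which read the same on both strands, the shares were 13.6%, 18.1% and 7.89% over the same classes of rises, 13.2% over the falls, 7.68% over measured genes that were not called and 9.55% over all genes of the table. A gene with several starts was counted once if any of its windows held the letters, and matches to both sets of letters overlapped in 5 of the 241 rising genes with a window. A promoter was at hand for 79.3% of the rising genes, under the 80% set as a minimum, so as a check on all rising genes the shares are void and describe the matched genes only.

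Of the signalling components themselves, few changed. Ifnar1 and Ifnar2, the 2 receptor chains, stood at 7.06, 7.04 and 6.90 and at 7.85, 7.95 and 7.73 with IFN-alpha, against 7.21, 7.15 and 7.01 and 7.74, 7.81 and 7.65 in mock cells. The arrays of the groups overlapped for both, and the 95% intervals of the differences were -0.35 to 0.10 for Ifnar1 and -0.08 to 0.29 for Ifnar2. Of 7 receptors and Janus kinases 1 was called, Jak2, a kinase that serves the IFN-gamma receptor, at 7.37, 7.37 and 7.46 with IFN-alpha and 6.73, 6.91 and 6.74 in mock cells (1.52-fold, 0.60 ± 0.07, adjusted p = 0.00121 in limma, and 0.492 when all 24 arrays shared the spread). The kinases of the type I receptor, Jak1 (-0.08, interval -0.24 to 0.08) and Tyk2 (0.01, -0.18 to 0.20), did not pass.

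Both ISGF3 subunits with a measured probe set rose. Stat2 had 8.59, 8.70 and 8.37 with IFN-alpha and 3.88, 4.42 and 4.16 in mock cells, 21.1-fold higher (4.40 ± 0.18, adjusted p = 4.23e-07 in limma). Irf9, the DNA-binding subunit, had 8.36, 8.33 and 8.47 with IFN-alpha and 4.56, 4.15 and 4.94 in mock cells, 14.3-fold higher (3.84 ± 0.17, adjusted p = 7.01e-07). The groups stood far apart for both. The other 4 STAT genes did not pass, with differences of 0.30 for Stat3, 0.04 for Stat5a, 0.02 for Stat5b and -0.18 for Stat6. Stat3, which mediates IL-6 signals, was at 8.39, 8.57 and 8.74 with IFN-alpha and 8.12, 8.32 and 8.36 in mock cells, without overlap but with an adjusted p of 0.241.

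Of 6 interferon regulatory factors 4 rose, counting Irf9, by sizes that ran from near 1 to above 4 on the log2 scale. Irf7, which drives the interferon genes in infected cells, had 6.64, 6.89 and 6.65 with IFN-alpha and lay below background at 2.47, 2.48 and 2.37 in mock cells, at least 6.62-fold higher (4.28 ± 0.10, adjusted p = 6.75e-09 in limma). Irf1, which binds sites much like the ISRE, had 7.72, 7.63 and 7.69 with IFN-alpha and 6.71, 6.69 and 6.71 in mock cells, 1.97-fold higher (0.98 ± 0.08, adjusted p = 6.74e-05). Irf2, which competes with Irf1 for its sites, had 5.28, 5.14 and 5.42 with IFN-alpha and 4.11, 3.92 and 3.95 in mock cells, at least 2.36-fold higher (1.28 ± 0.24, adjusted p = 0.0183). Its call was lost without any single array other than IFN-alpha replicate 2, with adjusted p-values of 0.0571 to 0.0772. Irf3 (-0.16), the factor that is activated by viral RNA and present before infection, and Irf5 (0.17) did not pass.

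Of 13 feedback inhibitors of JAK-STAT signalling, 2 rose, Usp18 and Socs2. Socs2, which restrains growth hormone signalling, had 4.92, 4.16 and 4.54 with IFN-alpha and 3.32, 3.34 and 3.16 in mock cells, at least 1.45-fold higher (1.26 ± 0.18, adjusted p = 0.00426 in limma). Raising all values below log2 4 to 4 removed the call (0.54, adjusted p = 0.22). Socs1, an inhibitor of Janus kinases, stayed below background at 2.56, 2.77 and 3.11 with IFN-alpha and 2.36, 2.24 and 2.29 in mock cells (0.52, adjusted p = 0.292). Socs3, an inhibitor of IL-6 family receptors, overlapped between the groups, at 8.84, 8.51 and 8.39 with IFN-alpha and 8.55, 8.58 and 8.31 in mock cells (0.10, 95% interval -0.19 to 0.38). Cish, a related inhibitor, was below background in both groups (-0.30, adjusted p = 0.305). The other 8 lay between -0.09 and 0.14.

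Antiviral effectors rose almost throughout. Over 15 lists of interferon-response genes (STAT and IRF factors, IFIT, OAS and other antiviral effectors, ISG15 enzymes, sensors, both GTPase families, PARP, schlafen, p200, TRIM, nuclear body and MHC class I genes), pooled, 102 of 129 measured genes rose and 0 fell. The median difference was 2.11, or 1.91 with genes below background at their bound, beside -0.07 over all genes. A gene could enter the measured set through the treated arrays. The count was therefore repeated over genes above log2 4 on at least 3 mock arrays. These were the mock arrays of both times, with and without 4sU. Of 89 such genes on the lists 64 rose, with a median difference of 1.32. Over all such genes 242 of 9159 (2.64%) rose, with a median of -0.07. The lists were drawn up from what is known of the interferon response and with earlier results of these data in view, so these counts are a description.

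**Figure D3:**
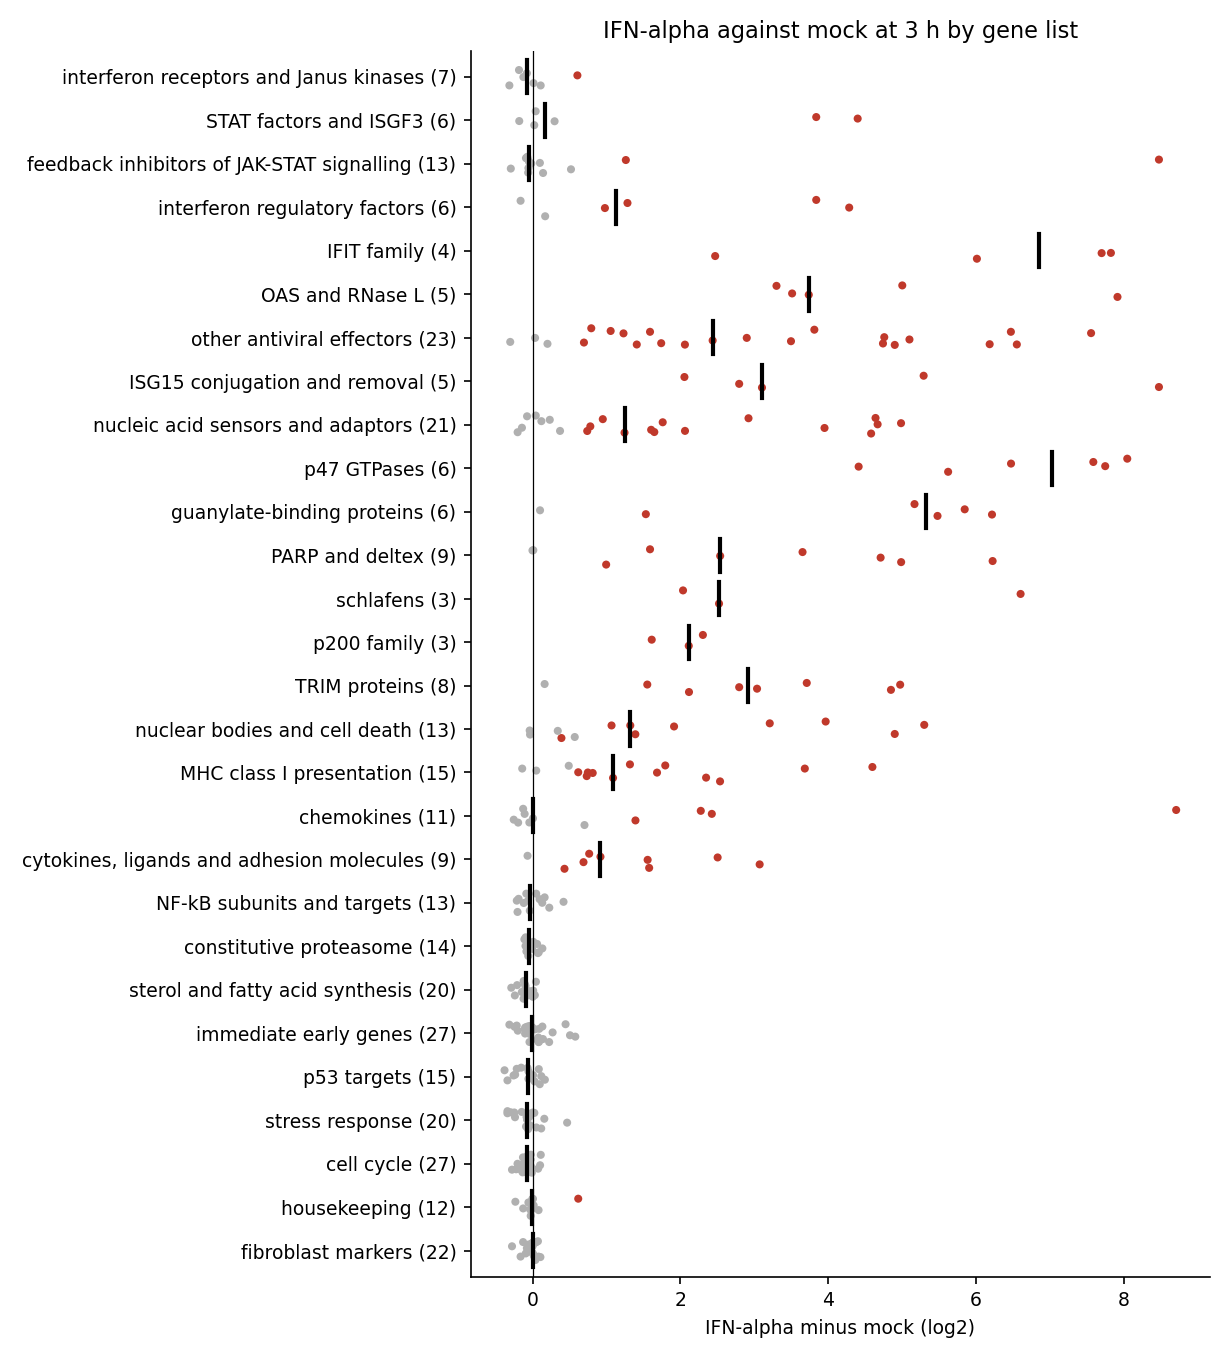
Each point is 1 measured gene of the list named on the left (number of measured genes in brackets), placed at its difference between IFN-alpha and mock at 3 h (log2), in red where called higher and in grey where not called, and the black bar is the list's median. The interferon-response lists lie to the right, with medians of 6.86 for the IFIT family and 7.03 for the p47 GTPases. With genes below background at their bound, which are not drawn, these medians are 6.19 and 6.2. The lists from NF-kB genes downwards lie around 0 apart from B2m.

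All 4 measured IFIT genes rose (median 6.86, or 6.19 with genes below background at their bound), as did all 5 OAS genes (median 3.74, or 2.58 at the bounds), whose products make an activator of RNase L or, in OAS-like members, bind RNA without that activity. Ifit3 had 12.15, 12.10 and 12.18 with IFN-alpha and 4.36, 4.35 and 4.24 in mock cells, 227-fold higher (7.83 ± 0.07, adjusted p = 1.55e-11 in limma). Ifit2 had 10.07 on all 3 IFN-alpha arrays and a measurable level of 7.64, 7.63 and 7.53 in mock cells, and was 5.54-fold higher (2.47 ± 0.08). Oasl2 rose by at least 119-fold (7.91 ± 0.15), Oas1a by 32.0-fold (5.00 ± 0.10), Oas1b by at least 3.91-fold and Oasl1 by at least 3.71-fold. Ifit1bl1 had 8.72, 8.67 and 8.63 with IFN-alpha and 2.67, 2.65 and 2.65 in mock cells, at least 25.5-fold higher (6.01 ± 0.07). Probe sets for Oas1c, Oas1e, Oas1f, Oas1h, Oas3 and Ifit1bl2 stayed below background in both groups, the highest value being that of Ifit1bl2, 3.77 with IFN-alpha.

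Of 23 other antiviral effectors 20 rose, with a median of 2.44. Mx1, a GTPase that blocks influenza virus in the nucleus, had 9.27, 9.52 and 9.14 with IFN-alpha and 2.83, 2.71 and 2.72 in mock cells, at least 39.6-fold higher (6.55 ± 0.11, adjusted p = 7.21e-10 in limma). Its relative Mx2, which acts in the cytoplasm, had 7.60, 7.74 and 7.62 with IFN-alpha and 2.56, 2.54 and 2.55 in mock cells, at least 12.6-fold higher (5.10 ± 0.13). Eif2ak2, the kinase PKR that stops translation on sensing double-stranded RNA, had 9.88, 9.84 and 9.99 with IFN-alpha and 6.06, 6.07 and 6.15 in mock cells, higher by 3.81 ± 0.09 on the log2 scale. Bst2 (tetherin), which holds budding virions on the cell, had 9.12, 8.88 and 9.05 with IFN-alpha and 6.22, 6.04 and 6.10 in mock cells, 7.45-fold higher (2.90 ± 0.09). The groups of these 4 genes did not overlap. Rtp4 rose 88.8-fold (6.47 ± 0.13), Cmpk2, a nucleotide kinase next to Rsad2, at least 30.9-fold (6.18 ± 0.18), Xaf1 29.9-fold (4.90 ± 0.13) and Ifi35 11.3-fold (3.50 ± 0.07). The 3 that did not pass were Ifi27 (0.20), Ifitm2 (0.03) and Ifi30 (-0.30). Rsad2 and Rtp4 had further probe sets with smaller rises, and the median over a gene's probe sets was 5.92 for Rsad2 and 5.00 for Rtp4. The second probe set of Cmpk2 rose by 4.01.

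The enzymes that attach ISG15, a ubiquitin-like protein, to its targets rose together with the enzyme that removes it. All 5 measured rose, with a median of 3.10, or 2.88 with genes below background at their bound. Uba7, the activating enzyme, had 6.91, 7.07 and 6.67 with IFN-alpha and 3.89, 3.88 and 3.58 in mock cells, at least 7.38-fold higher (3.10 ± 0.15, adjusted p = 1.34e-06 in limma). Ube2l6, the conjugating enzyme, had 4.61, 5.55 and 5.11 with IFN-alpha and 3.03, 3.04 and 3.04 in mock cells, at least 2.13-fold higher (2.05 ± 0.22). Raising all values below log2 4 to 4 removed the call for Ube2l6 (1.09, adjusted p = 0.0738). Herc6, the ligase in mice, rose at least 21.6-fold (5.29 ± 0.20), and by 2.68 to 4.97 on the log2 scale at its other probe sets. Trim25, which also ubiquitinates RIG-I, rose 6.94-fold to 11.46, 11.44 and 11.33, against 8.67, 8.68 and 8.49 in mock cells. Both groups were clearly apart for each of the 5.

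Of 21 nucleic acid sensors and adaptors 14 rose and 7 did not pass. The RNA helicases of the RIG-I family all rose. Ddx58 (RIG-I) had 9.22, 9.24 and 9.07 with IFN-alpha and 4.50, 4.78 and 4.51 in mock cells, 23.9-fold higher (4.58 ± 0.14, adjusted p = 4.49e-08 in limma). Ifih1 (MDA5) had 6.99, 7.16 and 6.96 with IFN-alpha and 2.38, 2.40 and 2.40 in mock cells, at least 8.19-fold higher (4.64 ± 0.18), and Dhx58 (LGP2) rose at least 9.88-fold (4.67 ± 0.17). Tlr3, the endosomal receptor for double-stranded RNA, had 7.97, 8.05 and 8.33 with IFN-alpha and 2.94, 3.28 and 3.17 in mock cells, at least 17.4-fold higher (4.99 ± 0.12), and Zbp1, which senses Z-form nucleic acids, rose at least 5.49-fold (3.95 ± 0.09). Adar, which edits double-stranded RNA, rose 3.04-fold at its brightest probe set, while its other probe sets differed by 2.55 and 3.59 on the log2 scale. Further probe sets rose by less, by 1.98 and 4.10 for Ddx58, 3.21 for Dhx58, 2.69 for Tlr3 and 2.32 for Zbp1. The adaptor Mavs (-0.20), the kinase Tbk1 (0.23) and Tmem173 (STING, 0.37) did not pass, while the adaptor Myd88 (1.65) rose.

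Both families of interferon-inducible GTPases, which attack the vacuoles of intracellular pathogens, rose. All 6 measured p47 GTPases passed, with a median of 7.03, or 6.2 with genes below background at their bound. Of 6 guanylate-binding proteins 5 passed, with a median of 5.32, or 5.13 at the bounds. Iigp1 had 10.94, 10.93 and 11.01 with IFN-alpha and 2.81, 2.68 and 3.26 in mock cells, at least 125-fold higher (8.05 ± 0.13, adjusted p = 7.21e-10 in limma). Irgm1, a regulator of the other p47 GTPases, had 11.07, 11.21 and 10.96 with IFN-alpha and was measurable in mock cells at 5.43, 5.55 and 5.38, 49.3-fold higher (5.62 ± 0.09). The lowest IFN-alpha array of each stood more than 5 log2 units above the highest mock array. Igtp rose at least 100-fold (7.75 ± 0.10), Irgm2 at least 119-fold (7.59 ± 0.12) and Ifi47 at least 53.9-fold (6.47 ± 0.08). Among guanylate-binding proteins, Gbp2 had 11.71, 11.67 and 11.41 with IFN-alpha and 6.54, 6.53 and 6.21 in mock cells, 35.9-fold higher (5.17 ± 0.12, adjusted p = 5.69e-09). Gbp7 rose at least 48.7-fold, Gbp3 at least 46.7-fold and Gbp6 at least 34.2-fold, and Gbp8 did not pass (0.10). Gbp2b was below background in both groups, at 3.91, 2.77 and 3.94 with IFN-alpha and 2.02, 2.01 and 2.00 in mock cells (1.53 ± 0.33, adjusted p = 0.0436). Its call was lost without any single array other than IFN-alpha replicate 2, with adjusted p-values of 0.114 to 0.164. These families hold close relatives, and how far probe sets share signal between them was not tested.

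Parp9 and Dtx3l, which encode partners in 1 ubiquitin ligase complex, and their neighbour Parp14 rose among 7 of 9 measured PARP and deltex genes. Parp9 had 10.09, 10.14 and 10.04 with IFN-alpha and 5.31, 4.97 and 5.04 in mock cells, 31.7-fold higher (4.99 ± 0.10, adjusted p = 1.85e-09 in limma), Dtx3l rose 26.2-fold (4.71 ± 0.10) and Parp14 at least 40.3-fold (6.22 ± 0.12). The second probe set of Parp14 rose by 1.14, to an IFN-alpha mean of 3.99, just below background. Parp12 (3.65) and Parp11 (2.54) rose as well, while Parp1 and Parp2, which act in DNA repair, differed by 0.01 and -0.00 and did not pass. All 3 measured schlafens rose, Slfn8 at least 54.0-fold (6.60 ± 0.10), Slfn9 5.74-fold and Slfn2 at least 1.47-fold. All 3 measured genes of the p200 family, which bind DNA, rose. Ifi204 rose by 2.30, Ifi207 by 1.61, and Ifi202b by 2.11 to 13.31, 13.26 and 13.22, against 11.13, 11.20 and 11.12 in mock cells. In both lists 8 genes had a probe set, and those other than the 3 measured did not pass the background filter. Above log2 4 on at least 3 mock arrays were 1 of the 3 schlafens and 2 of the 3 p200 genes. Of 8 TRIM genes 7 rose, led by Trim21, a receptor for antibodies inside cells (at least 21.8-fold, 4.97 ± 0.12), and Trim30a (28.8-fold, 4.85 ± 0.14), and Trim8 did not pass (0.16).

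Nuclear body and cell death genes were split. Of 13 measured, 9 rose, with a median of 1.32. Pml, the scaffold of these bodies, had 8.02, 8.11 and 8.24 with IFN-alpha and 6.19, 6.27 and 6.17 in mock cells, 3.77-fold higher (1.91 ± 0.10, adjusted p = 1.77e-06 in limma). Daxx, a histone chaperone found there, had 10.10, 10.07 and 10.09 with IFN-alpha and 7.03, 6.81 and 6.80 in mock cells, 9.24-fold higher (3.21 ± 0.08), and Sp100 rose at least 7.33-fold (3.97 ± 0.13). Among the death genes the receptor Fas rose 2.10-fold (1.07 ± 0.12), to 8.10, 7.87 and 7.84, against 6.79, 7.08 and 6.74 in mock cells. Each of these 4 genes kept the groups apart on every array. The initiator caspase Casp8 (-0.04) and the necroptosis kinase Ripk3 (-0.04) did not pass, whereas Mlkl (1.39), the protein that breaches the membrane in necroptosis, did.

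MHC class I presentation rose in 12 of 15 measured genes, with a median of 1.09, or 0.91 with genes below background at their bound. Tap1, a subunit of the peptide transporter, had 7.85, 7.87 and 7.98 with IFN-alpha and 2.95, 3.74 and 3.22 in mock cells, at least 14.9-fold higher (4.60 ± 0.17, adjusted p = 2.15e-07 in limma). The immunoproteasome subunit Psmb9 had 7.38, 7.19 and 7.68 with IFN-alpha and 3.64, 3.47 and 4.09 in mock cells, at least 10.4-fold higher (3.68 ± 0.18), and Psmb10 rose 5.09-fold (2.35 ± 0.11). Nlrc5, a transactivator of class I genes, rose at least 1.87-fold (2.54 ± 0.14), and Tap2 3.47-fold (1.79 ± 0.10). The class I chain H2-K1 had 11.04, 11.10 and 10.97 with IFN-alpha and 10.41, 10.31 and 10.19 in mock cells, 1.66-fold higher (0.73 ± 0.08, adjusted p = 0.000422), and its other probe sets differed by 1.25 and 1.23. H2-D1 was 1.68-fold higher (0.75 ± 0.08), with 0.70 to 1.46 at its other probe sets, and the light chain B2m 1.53-fold higher (0.62 ± 0.07), at 12.19, 12.28 and 12.28 with IFN-alpha and 11.64, 11.64 and 11.61 in mock cells. The arrays did not overlap for any of these 8 genes. When all 24 arrays shared the spread, 4 of the 15 were called, and H2-K1, H2-D1, B2m, Tap2 and Psmb10 were not among them. The chaperone Calr (0.05), the disulfide isomerase Pdia3 (-0.14) and the peptidase Erap1 (0.49) did not pass, and all 14 measured subunits of the constitutive proteasome lay between -0.11 and 0.13. MHC class II genes had no measured probe set, and those for Ciita, their master regulator, stayed at or below 2.44 on the 6 arrays.

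Of 11 measured chemokine genes 4 rose, with a list median of 0.00. The monocyte chemokines Ccl2 and Ccl7 were well above background in mock cells too. Ccl2 had 11.55, 11.52 and 11.51 with IFN-alpha and 9.26, 9.22 and 9.28 in mock cells, 4.84-fold higher (2.27 ± 0.06, adjusted p = 1.24e-08 in limma). Ccl7 had 9.80, 9.91 and 10.39 with IFN-alpha and 7.33, 7.39 and 8.11 in mock cells, 5.37-fold higher (2.42 ± 0.25, adjusted p = 0.000411, and 0.768 when all 24 arrays shared the spread, where 2 of the 11 chemokines were called). The groups of both were apart, by less than 2 log2 units between the nearest arrays for Ccl7. Cxcl9, which shares a receptor with Cxcl10, reached only background, at 4.07, 3.87 and 3.64 with IFN-alpha and 2.60, 2.40 and 2.40 in mock cells (1.39 ± 0.12, adjusted p = 9.29e-05), a call that was lost once values below log2 4 were raised to 4 (0.02, adjusted p = 0.943). Ccl8 did not pass (0.70, adjusted p = 0.2), but did in the fit blocked on replicate number (adjusted p = 0.00897) and with array weights (0.91, adjusted p = 0.0402). Ccl5, a T cell chemokine, did not pass (-0.05, 95% interval -0.38 to 0.29).

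Of 9 cytokines, ligands and adhesion molecules 8 rose. Cd274 (PD-L1), the ligand of an inhibitory T cell receptor, had 5.52, 5.32 and 5.95 with IFN-alpha and 2.54, 2.51 and 2.53 in mock cells, at least 3.03-fold higher (3.07 ± 0.16, adjusted p = 2.46e-06 in limma). Il15, which sustains NK cells and memory T cells, had 7.37, 7.27 and 7.06 with IFN-alpha and 4.70, 4.46 and 5.03 in mock cells, 5.67-fold higher (2.50 ± 0.17). Its presenting receptor Il15ra rose at least 1.26-fold (1.58 ± 0.21), a call lost once values below log2 4 were raised to 4 (0.37, adjusted p = 0.334). The second probe set of Il15ra rose by 2.54 to an IFN-alpha mean of 4.79 (adjusted p = 3.18e-08 in limma). Il6, a cytokine of acute inflammation, had 6.45, 6.50 and 6.70 with IFN-alpha and 4.52, 5.38 and 5.08 in mock cells, 2.94-fold higher (1.56 ± 0.19, adjusted p = 0.0011). These 4 genes had no overlap between the groups. Vcam1, an adhesion molecule for leukocytes, rose 1.89-fold (0.92 ± 0.12, adjusted p = 0.00195, and 0.0673 when all 24 arrays shared the spread), and Lif did not pass (-0.07). The other probe sets of Vcam1 differed by 0.85 and 0.57, and the latter did not pass (adjusted p = 0.0935 in limma). Probe sets for 9 interferon genes, Ifnb1 among them, stayed at or below 3.17 on all 6 arrays.

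Of the 304 rises, 188 were of genes on none of the lists, with differences of 0.34 to 5.17. The 15 largest were led by Samd9l, a virus restriction factor, at 10.63, 10.69 and 10.65 with IFN-alpha and 5.58, 5.74 and 5.13 in mock cells, 36.1-fold higher (5.17 ± 0.15, adjusted p = 2.51e-08 in limma). Rnf213, a very large ubiquitin ligase, had 11.68, 11.66 and 12.33 with IFN-alpha and 7.11, 7.10 and 7.37 in mock cells, 25.9-fold higher (4.70 ± 0.18). Gm20559, next to Samd9l on chromosome 6, had 9.50, 9.59 and 9.43 with IFN-alpha and 5.11, 5.32 and 5.02 in mock cells, 20.5-fold higher (4.36 ± 0.09). In all 3 every treated array stood more than 4 log2 units above every mock array. Further rises were those of BC023105 (at least 2.80-fold), the phospholipid scramblase relative Plscr2 (7.57-fold), the poly(A) polymerase Tent5a (at least 2.86-fold), the apolipoprotein L genes Apol7a (at least 2.53-fold) and Apol6 (at least 2.02-fold), apolipoprotein D Apod (at least 2.27-fold) and LOC664787 (at least 2.17-fold). Mitd1, which acts in the last step of cell division, rose 5.09-fold, the tudor domain gene Tdrd7 4.95-fold, Tor1aip1, which encodes a partner of torsins at the nuclear lamina, 4.74-fold, and Tcirg1, a subunit of the vacuolar proton pump, 4.72-fold. Gm9706 rose 5.72-fold (2.51 ± 0.25), and its annotation joins it with Isg15 at another probe set, so its signal is uncertain.

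Some rising genes lay side by side. Of 9394 measured genes with a position on GRCm38.p6, 302 rose. Of these, 97 (32.1%) stood next to another rising gene in that order, forming 41 runs, 11 of which held 3 or more. How many runs would arise among 302 of 9394 genes placed at random was not tested. The longest run, on chromosome 19 (chr19:34290647-34662981), held Fas, Lipa, Ifit2, Ifit3, Ifit1bl1 and Ifit1, with rises of 1.07, 1.05, 2.47, 7.83, 6.01 and 7.70. A run on chromosome 3 (chr3:142530336-142638008) held Gbp7, Gbp3, Gbp2b and Gbp2. Runs of 3 included Oas2, Oas1b and Oas1a on chromosome 5 and Parp14, Dtx3l and Parp9 on chromosome 16. Others were Psmb9, Tap1 and Tap2 on chromosome 17, Slfn9, Slfn8 and Slfn2 on chromosome 11 and Psme1, Rnf31 and Irf9 on chromosome 14. A run can be wide, since only order counted: Arhgap24, Ptpn13 and Aff1 on chromosome 5 spanned 1648.1 kb. Within a run the sizes differed: Psmb9, Tap1 and Tap2 rose by 3.68, 4.60 and 1.79, and Rsad2 and Cmpk2, a pair on chromosome 12, by 7.56 and 6.18.

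The 50 falls were all of less than 1 on the log2 scale. Dbp, a transcription factor of the circadian clock's output, had 3.65, 3.40 and 3.39 with IFN-alpha and 4.48, 4.39 and 4.28 in mock cells, at least 1.31-fold lower (-0.90 ± 0.12, adjusted p = 0.00182 in limma). Tshz1, a zinc finger factor of development, had 6.16, 6.26 and 6.18 with IFN-alpha and 6.88, 6.99 and 6.72 in mock cells, 1.59-fold lower (-0.66 ± 0.09, adjusted p = 0.00172). L3mbtl3, a reader of methylated lysine, had 6.06, 6.32 and 6.31 with IFN-alpha and 6.74, 6.83 and 7.01 in mock cells, 1.55-fold lower (-0.63 ± 0.10). The groups of these 3 did not overlap, but the second probe set of Tshz1 differed by -0.02 and that of L3mbtl3 by -0.27, and neither passed. The zinc finger gene Zfp40 fell at least 1.21-fold, to below background on all IFN-alpha arrays, and lost its call once values below log2 4 were raised to 4 (adjusted p = 0.258). Rasl11a, a small GTPase, fell by 0.89 (± 0.17), Otulinl at least 1.39-fold, with all IFN-alpha arrays below background, Polr3g, a subunit of RNA polymerase III, by 0.74 (± 0.15), Mex3b, an RNA-binding protein, at least 1.59-fold, with all IFN-alpha arrays below background, 4933439C10Rik by 0.69 (± 0.11) and Zfp799 by 0.66 (± 0.14). When all 24 arrays shared the spread, 2 of these 10 passed, and 2 of all 50. The second probe set of 4933439C10Rik differed by -0.26 and did not pass (adjusted p = 0.54 in limma). Of 11 falling genes with 2 or more measured probe sets, 1 had all of them called lower. Among rising genes, 80 of 137 had all of them called higher. In place of 84, 43 probe sets fell without IFN-alpha replicate 1, 46 without IFN-alpha replicate 2, 53 without mock replicate 1 and 44 without mock replicate 2. Polr3g and Zfp799 were each lost without any of 5 single arrays (adjusted p up to 0.117 and 0.135), Mex3b without any of 4 (up to 0.072), Rasl11a without any of 3 (up to 0.0852) and Otulinl without IFN-alpha replicate 2 or mock replicate 1 (0.0582 and 0.0611).

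Gene groups outside the interferon response gave few calls. Among 27 cell cycle genes, 22 fibroblast markers, 20 genes of the stress response, 15 targets of p53, 27 immediate early genes, 20 genes of sterol and fatty acid synthesis and 13 NF-kB genes none was called in either direction by limma, and their medians lay between -0.08 and -0.00, beside -0.07 over all genes. In the fit blocked on replicate number, the immediate early genes Dusp5 (0.58, adjusted p = 0.00638), a phosphatase, and Klf4 (0.44, adjusted p = 0.0312), a transcription factor, and the haem oxygenase Hmox1 (0.47, adjusted p = 0.0113) were higher. The replicates of Dusp5 spread more widely than its groups differed, at 7.62, 7.59 and 8.34 with IFN-alpha and 6.89, 7.14 and 7.80 in mock cells. Of 12 housekeeping genes only B2m was called, and Actb stood at 13.34, 13.29 and 13.30 with IFN-alpha and at 13.26, 13.25 and 13.42 in mock cells (0.00, 95% interval -0.19 to 0.19). The NF-kB inhibitor Tnfaip3 overlapped between the groups, at 4.09, 4.23 and 3.54 with IFN-alpha and 2.92, 3.92 and 3.77 in mock cells.

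Set directly against IFN-gamma for the same 3 h, IFN-alpha gave higher values for 276 genes (2.93%) and lower values for 282 (2.99%), or 471 (2.44%) and 522 (2.70%) of the probe sets. The IFIT, OAS and schlafen genes were all higher with IFN-alpha (4 of 4, 5 of 5 and 3 of 3), and all 6 p47 GTPases and 5 of 6 guanylate-binding proteins were lower. Rsad2, at 9.95, 10.11 and 10.05 with IFN-alpha, averaged 2.56 with IFN-gamma (7.48 ± 0.07, adjusted p = 1.33e-10 in limma), close to its mock values. Mx1 (6.40), Cmpk2 (5.74), Ifit1bl1 (5.71) and Ifit3 (5.36) were also higher with IFN-alpha. The IFN-gamma means of Rsad2, Mx1, Cmpk2, Ifit1bl1 and Irf7, and the IFN-alpha means of Cxcl9 and Socs1, lay below background, so their differences depend on values that are not measured levels. Irf7 averaged 6.73 with IFN-alpha and 2.93 with IFN-gamma (3.79, adjusted p = 7.18e-08 in limma). Cxcl9 (-5.04), Fst (-3.81), which encodes an activin antagonist, BC023105 (-3.58), Irf1 (-3.56), Socs3 (-3.04), Socs1 (-2.84) and Cd274 (-2.55) were lower with IFN-alpha than with IFN-gamma. Of MHC class I genes 7 of 15 were lower with IFN-alpha and 0 higher without the block. The lower ones included Nlrc5 (-2.14), Psmb9 (-1.49) and Tap2 (-1.01), while H2-K1 (0.28), H2-D1 (0.29) and B2m (0.02) did not pass. Stat2 (0.52) and Irf9 (0.43), which both rose against mock, did not pass either (adjusted p = 0.206 and 0.282 in limma). In the fit blocked on replicate number H2-K1, H2-D1 and Stat2 were called higher with IFN-alpha than with IFN-gamma (adjusted p = 0.0414, 0.0445 and 0.049).

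**Figure D4:**
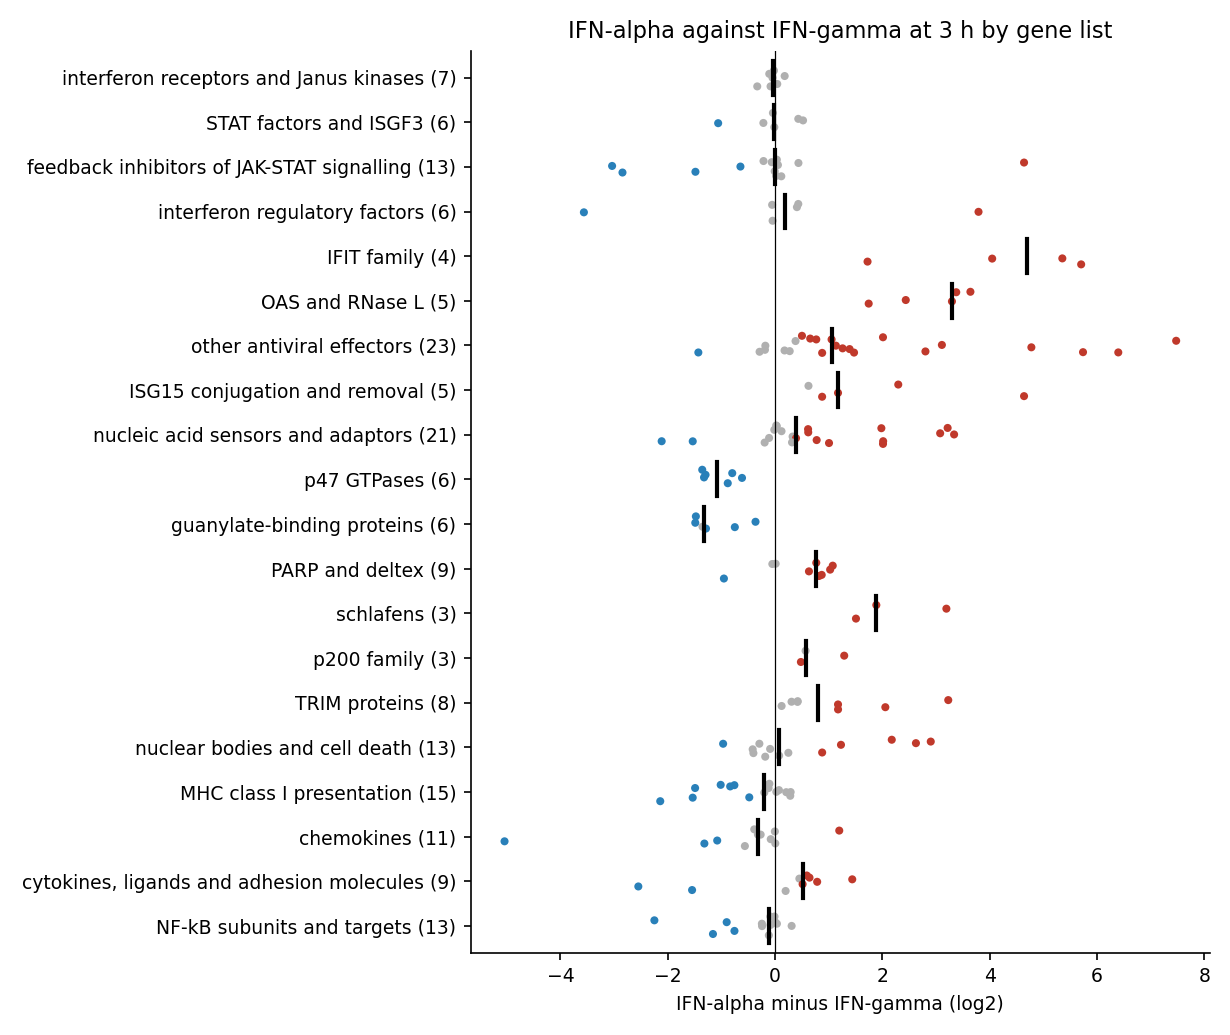
Each point is 1 measured gene of the list named on the left, placed at its difference between IFN-alpha and IFN-gamma at 3 h (log2), in red where called higher with IFN-alpha, in blue where called lower and in grey where not called, and the black bar is the list's median. The IFIT and OAS lists lie to the right, with medians of 4.70 and 3.30, and the p47 GTPases and guanylate-binding proteins to the left, with medians of -1.09 and -1.32.

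The response was also tested against that at 1 h, as the difference between IFN-alpha and mock at 3 h minus that at 1 h. As a signed value it was higher at 3 h for 104 genes (1.10%) and lower for 3 (0.0318%), or 180 (0.932%) and 4 (0.0207%) of the probe sets, and 357 and 32 in the fit blocked on replicate number. Between the times the 4sU dose and its window changed too, for treated and mock cells alike. Oas1a differed from mock by 0.01 at 1 h and by 5.00 at 3 h (difference of differences 4.99 ± 0.15, adjusted p = 2.35e-15 in limma), Herc6 by 0.07 and 5.29, and Irf7 by 0.27 and 4.28. The 3 h mock means of Herc6 and Irf7 lay below background, so their differences depend on values that are not measured levels. Other genes had risen by 1 h. Cxcl10 differed by 5.43 at 1 h and 8.71 at 3 h (adjusted p = 0.000819 in limma). Ifit1 differed by 5.56 and 7.70, a change between the times that was imprecise (2.14 ± 1.31 SE) and did not pass. The gap between the 3′ and 5′ beta-actin control probe sets was 2.987 on mock replicate 2 and 3.095 on IFN-alpha replicate 2 of 1 h. On the other 1 h arrays of these groups it was 0.838 to 1.374. The 3 genes with a lower signed difference at 3 h were Irf1 (3.35 at 1 h, 0.98 at 3 h) and Socs3 (2.12 and 0.10), whose differences were smaller at 3 h, and Zfp40 (0.02 and -0.90), which was lower than mock at 3 h and near it at 1 h.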

How the data were processed

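The deposited table holds log2 signals that the authors made with GCRMA, per the submitters' processing notes, and the version and the arrays run together are not given in the sources used here. The labels describe total RNA of NIH-3T3 cells on Affymetrix arrays. Control probe sets (64) were left out, 19305 of the other 45037 passed the background filter, and gene names came from GEO's platform annotation. A gene was represented by its brightest probe set with a single symbol. Isg15 and Gapdh had none and were not analysed.

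The 9 arrays of 3 h were fitted as 3 group means with limma 3.58.1 in R 4.3.3, with Benjamini-Hochberg adjustment over all 19305 probe sets and a threshold of 0.05. The SE and 95% intervals come from this fit, and the small number of arrays limits precision. IFN-alpha was set against IFN-gamma in the same fit, and against the 1 h response in a fit of all 24 arrays. A fold is a lower bound, with values below log2 4 raised to 4, where the lower group's mean was below 4. The deviations of 3 h arrays with the same replicate number correlated at r 0.128 to 0.646, those with other numbers at -0.557 to 0.382. Replicate 3 stood apart (0.646 between IFN-alpha and mock). Replicates 1 and 2 were not told apart: IFN-gamma replicate 1 gave 0.128 with mock replicate 1 and 0.331 with mock replicate 2. Pairing by number is thus not established, and the block served as an alternative fit only. Tested on simulated data for IFN-alpha against mock over 19305 probe sets, the fit recovered 20 of 50 changes of 0.5, 45 of 50 of 1 and 49 of 50 of 3, with 4 false calls. The simulated noise was independent between arrays, unlike the measured deviations, so these counts may not hold for the data.

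Named were the 25 largest rises, the 10 largest falls, the 5 largest differences of each list, the 15 largest rises on no list, the 8 largest called differences in each direction for IFN-gamma and for time, and a fixed set of pathway genes. Other genes were named from the lists. The members and the 32 gene lists were chosen with earlier results of these data known. Alternatives were other normalizations, filters, sets of arrays, array weights, the replicate block and leaving out each array. Promoters were RefSeq's.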

Additional observations from a re-analysis of the deposited data

Results flagged for a closer look

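The response to IFN-alpha differed between the times by the test of the difference itself for the genes given here, with time, 4sU dose and labelling window changing together. Among the largest such differences, the difference from mock was larger at 3 h than at 1 h by 5.66 for Rsad2, 5.54 for Oasl2, 5.5 for Cmpk2, 5.24 for Iigp1, 5.22 for Herc6, 5.13 for Ifit1bl1, 5.12 for Gbp6 and 4.99 for Oas1a, all on the log2 scale. It was smaller at 3 h for Irf1 (-2.37) and Socs3 (-2.02), and for Zfp40, which was near mock at 1 h and below it at 3 h, the signed value changed by -0.913. The 3 h mock means of Rsad2, Oasl2, Cmpk2, Iigp1, Herc6, Ifit1bl1 and Gbp6 lay below background. The sizes given for these genes thus depend on values that are not measured levels. The 18S ribosomal RNA control probe sets, which enter no comparison, averaged 10.28 on IFN-alpha replicate 3, above all the mock arrays of 3 h.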

How the results depend on the processing

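For IFN-alpha against mock, where 525 probe sets were higher and 84 lower, a fit of all 24 arrays called 300 (295 higher, 5 lower), and the 6 arrays alone called 48 lower. The replicate block called 248 lower, values below log2 4 set to 4 gave 180 lower, and array weights, whose estimate did not fully converge, called 1419, of them 663 lower. Higher calls made up 86.2% of calls, 72.5% with the block, 72.9% with values set to 4 and 53.3% with weights. With arrays centred on their median 551 probe sets were higher and 64 lower, and with quantile normalization 540 and 71. Leaving out 1 array gave 434 to 494 higher and 43 to 75 lower. Against IFN-gamma, 24 arrays called 325 (147 higher, 178 lower) and array weights 1698 (746 and 952), beside 471 and 522. For the difference between the times, beside 180 and 4, the block called 389 (357 and 32), values set to 4 gave 8 lower, and weights called 287 (274 and 13). Among named genes, against mock, 17 calls were lost with all 24 arrays, 10 with values set to 4, 7 with no filter and 4 with the 6 arrays alone, while weights added 11 calls and the replicate block 4. No called difference of a named gene changed sign, but differences near 0 that were not called did, such as that of Socs3 (-0.03 without IFN-alpha replicate 1). The cause of these changes was not tested.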
